A study of Bos taurus and Sus scrofa with 6 samples.

Results

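GDNF, GFRA1, RET and GFRA2 are the ligand and receptors of GDNF signalling, and their levels were taken from single-cell transcriptomes of prepubertal cattle and pig testes. They were chosen by gene symbol, with no use of their measured values, and 4 of 4 symbols were present both in the cattle table of 19994 genes and in the pig table of 22694 genes. Testes came from 3 prepubertal Holstein animals at 4.5 months of age and from 3 pigs of mixed breed at 3 months, all by castration and with no treatment named in the labels. Parenchyma was digested enzymatically, about 8000 live cells per animal were loaded without sorting, and total testicular cells were profiled with 10x Genomics v2 chemistry, giving 1 library per animal and 6 libraries in all. The titles of 2 libraries of each species carry the same testis number with different animal tags, whereas the methods count 3 animals per species. If 2 of those libraries came from 1 animal, the p-values below would measure part technical spread. Species, age, breed and genome annotation differ together, so these cannot be told apart in any comparison of pigs with cattle.

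GDNF is a secreted growth factor that in mice is made by Sertoli cells and peritubular myoid cells and maintains the self-renewal of spermatogonial stem cells. It binds GFRA1, a receptor anchored to the outer face of the cell membrane, and the pair activates RET, a receptor tyrosine kinase that carries the signal into the cell. GFRA2 is the related co-receptor that prefers neurturin (NRTN), and it also signals through RET.

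Counts in these libraries arise from the 3′ ends of polyadenylated transcripts, with a unique molecular identifier (UMI) for each captured molecule. A UMI level is therefore not divided by transcript length, and levels were compared within a gene and not read as the order of the genes. In the RefSeq annotation of the pig genome Sscrofa11.1, GDNF lies on the minus strand of chromosome 16, from 22936602 to 22965929. RET and GFRA1 lie on chromosome 14, GFRA1 on the minus strand from 126273558 to 126499957. GFRA2 has 2 loci there, one on the plus strand from 3138174 to 3209687 and one on the minus strand from 5743583 to 5837470. No other annotated gene overlapped any of these loci, and the transcripts of different loci had no stretch of 30 bases in common. Which of the GFRA2 loci the identifier in the count table stands for was not determined, so the locus behind the pig GFRA2 counts is uncertain. The count table uses Ensembl identifiers, and where the counted fragments lie relative to the RefSeq transcript ends was not examined. The last 30 bases of the RefSeq GDNF, GFRA1 and GFRA2 transcripts are shown 5′ to 3′ with the polyadenylation signal AATAAA in capitals. All of these stretches lie in the last exon. The signal was found in 3 of the 4 stretches, and the GFRA1 stretch ends in a run of A without it.
GDNF, chr16:22936602-22936631, minus strand: ttttacaAATAAAaactcatttctattgct
GFRA1, chr14:126273558-126273587, minus strand: ttgttttctttttctaaaaaaaaaaaaaaa
GFRA2, first locus, chr14:3209658-3209687, plus strand: aaaaatacaAATAAAtccatgaaagccagg
GFRA2, second locus, chr14:5743583-5743612, minus strand: aggctccAATAAAcgtcctaggaagctgtc

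After barcodes with few UMIs and predicted doublets were left out, 17482 cattle and 9206 pig cells remained, with a median UMI count per cell between 789 and 4461 in the cattle libraries and between 890 and 5870 in the pig libraries. Between 9 and 61 barcodes occurred in both of any 2 libraries of a species. Clusters were named from marker genes, and the suffix "-like" marks such a name. The germ-like cells numbered 83, 218 and 218 in the 3 cattle and 645, 225 and 699 in the 3 pigs. In them 9 of 10 cattle and 9 of 9 pig germ cell markers present in the gene tables were higher than in the other cells of every animal. The same held for 6 of 8 markers in cattle Sertoli-like and 4 of 7 in cattle endothelial-like cells. A larger share of markers passed in every other class checked. The same markers gave the classes their names, so these counts are no independent check of the names. Germ-like cells were deeper than the average cell, with a median of 7308 UMIs in cattle against 2103 over all cattle cells. The part that this depth plays in shares of cells with a UMI was examined by thinning, below.

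GFRA1, the receptor that defines GDNF-responsive spermatogonia in mice, was concentrated in the germ-like cells of cattle. Of the 152 GFRA1 UMIs in all cattle cells, 121 were in germ-like cells. Its level there, in UMIs per 1000000 UMIs of the summed cells (CPM), was 23.9 CPM in cattle 1, 18.3 in cattle 2 and 24.1 in cattle 3, with a mean of 22.1 ± 3.27 (SD, n = 3). In the other cells of the same animals it was 1.31, 1.17 and 0.308 CPM. The 3 germ-like values lay close together and did not overlap with those of the other cells. The log2 fold change was 3.63 with an SE of 0.599 (edgeR quasi-likelihood test on UMIs summed per animal, adjusted p = 0.000916). In this comparison 23.1% of the 14200 genes tested were higher and 26.7% were lower in germ-like cells, so a call by itself was common.

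RET, the kinase that both co-receptors need, was found mainly in the germ-like cells of cattle. Germ-like cells held 91 of the 104 RET UMIs, which gave 10.2 CPM in cattle 1, 27.5 in cattle 2 and 13.9 in cattle 3. The value of cattle 1 rests on 3 UMIs, and cattle 2 stood above the other two. The other cells had 0 UMIs in cattle 1 and cattle 2 and 0.445 CPM in cattle 3, so the groups did not overlap. The log2 fold change was 5.11 with an SE of 0.869 (adjusted p = 0.00107, edgeR). Over the animals that can be left out it ran from 4.15 to 8.73.

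GFRA2 was also higher in the germ-like cells of cattle. They held 293 of its 466 UMIs, at 58.0, 54.2 and 54.9 CPM in cattle 1 to 3, against 8.86, 2.99 and 3.42 in the other cells. The germ-like values differed by little and lay far above the other cells in every animal. The log2 fold change was 2.45 with an SE of 0.434 (adjusted p = 0.00134, edgeR). All 3 receptors were therefore called higher in cattle germ-like cells, and the ligand GDNF was not, with 2 UMIs there and a log2 fold change of 0.17 (adjusted p = 0.948, edgeR). The fold changes are on a scale set by edgeR's TMM factors, which placed cattle germ-like cells 1.14 log2 units lower than plain CPM does, and pig germ-like cells 0.35 lower. On library size alone the 3 cattle receptors were at 4.75, 6.20 and 3.59, still higher.

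**Figure D1:**
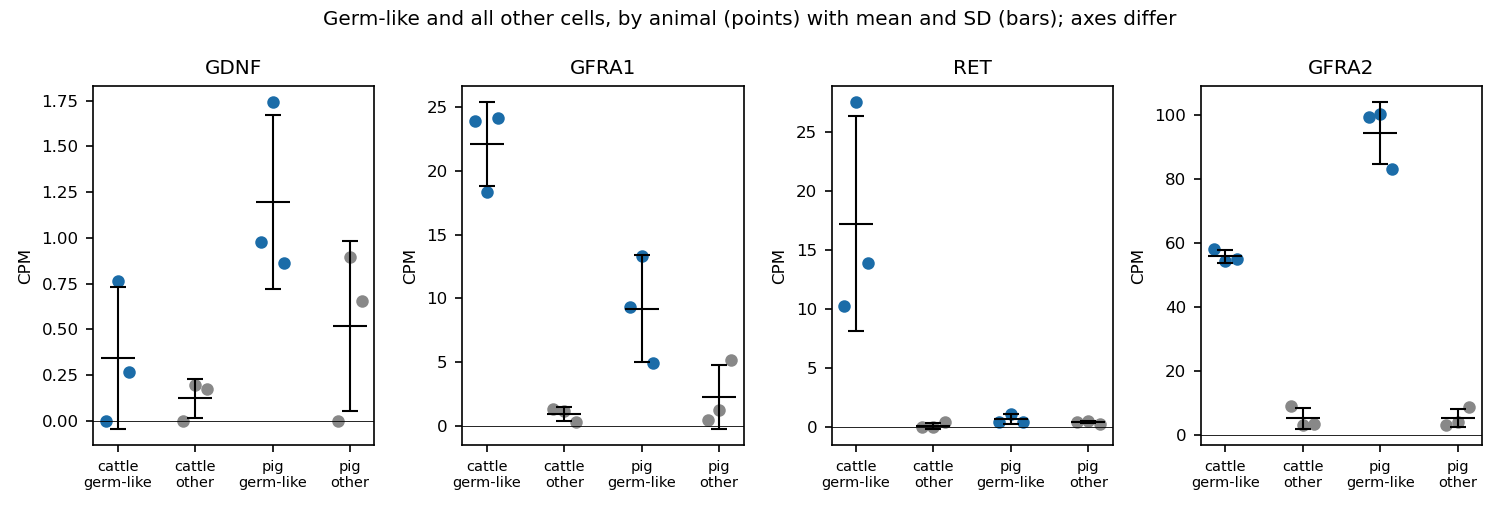
Level of each gene in CPM (vertical axes, different in each panel) in germ-like cells and in all other cells of the same animals; points are the 3 animals of a species, bars the mean and SD. GFRA1, RET and GFRA2 separate the cattle groups, whereas in pigs GFRA2 separates them clearly, at 83.1 to 100 CPM in germ-like cells against 3.03 to 8.52 in the others.

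In pigs GFRA2 was the receptor called higher in germ-like cells. Germ-like cells held 1511 of the 1657 GFRA2 UMIs, with 99.3, 100 and 83.1 CPM in pig 1 to pig 3 and a mean of 94.3 ± 9.68 (SD, n = 3). The other cells had 3.03, 3.91 and 8.52. Every germ-like value was far above every other value, and the log2 fold change was 3.79 with an SE of 0.419 (adjusted p = 0.000587, edgeR). In this comparison 17.2% of the 15217 genes tested were higher and 20.2% were lower in germ-like cells.

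GFRA1 in the same pig cells was at 9.29, 13.3 and 4.92 CPM, from 19, 46 and 57 UMIs. The other cells had 0.432, 1.28 and 5.13 CPM. In pig 1 and pig 2 the germ-like cells were higher, but in pig 3 both groups were alike and the groups overlapped. The log2 fold change of 1.51 with an SE of 0.756 did not pass the test (adjusted p = 0.144, edgeR). Without pig 3 it was 3.12 and passed (adjusted p = 0.0189). The stromal-like cells of pig 3, described below, held 29 of the GFRA1 UMIs among its other cells. Of its 699 germ-like cells, 394 were in cluster 16 and 55 in cluster 7, which had hardly any GFRA1 UMI, as described below.

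RET was close to the limit of detection in pigs, with 22 UMIs in 9206 cells. Germ-like cells had 1, 4 and 5 UMIs in pig 1 to pig 3, or 0.489, 1.16 and 0.432 CPM, and the other cells had 0.432, 0.512 and 0.328. The groups overlapped, and the log2 fold change was 0.29 with a 95% interval from -1.24 to 1.82 (adjusted p = 0.867, edgeR). A RET UMI was found in 10 of 1569 germ-like cells (0.637%, median 7482 UMIs), in 6 of 691 endothelial-like cells (0.868%, median 5361 UMIs) and in 4 of 3713 Sertoli-like cells (0.108%, median 3413 UMIs). The share in germ-like cells was no higher than that in endothelial-like cells, and was not read as expression. In endothelial-like cells the RET log2 fold change over 2 animals was 1.93, with a 95% interval from 0.20 to 3.65. It did not pass (adjusted p = 0.212, edgeR). A RET level in pig germ cells above that of other cells was not detectable with these counts.

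The difference in the germ-like effect between species was tested itself over the 12769 gene symbols that both gene tables hold once and that passed the filter on low counts. RET differed, by -4.66 log2 units in pigs relative to cattle with an SE of 1.27 (adjusted p = 0.022, edgeR interaction term), among 6.42% of genes with a smaller and 9.03% with a larger effect in pigs. The call was lost without cattle 2 (adjusted p = 0.0932), without pig 2 (adjusted p = 0.0785) and without pig 3 (adjusted p = 0.0631). The difference for GFRA1 was -1.97 (95% interval from -3.92 to -0.01, adjusted p = 0.209) and for GFRA2 1.49 (from 0.33 to 2.65, adjusted p = 0.102), and neither passed. The GFRA1 interval, from a normal quantile, leaves out 0 although p was 0.0668 before adjustment (edgeR interaction term). With the animal as a block GFRA2 passed (adjusted p = 0.0238, with 16% of genes larger in pigs), as it did without pig 3 (adjusted p = 0.0307).

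The levels of the 3 receptors in germ-like cells themselves did not overlap between the species. RET was at 17.2 ± 9.09 CPM in cattle and 0.694 ± 0.405 in pigs (SD, n = 3 each), GFRA1 was at 22.1 ± 3.27 and 9.19 ± 4.21, and GFRA2 at 55.7 ± 1.99 and 94.3 ± 9.68. In an exact two-sided permutation test over animals each gave p = 0.1, the smallest that 3 against 3 can give, and 0.2 after adjustment over 12 tests. GDNF could not be ranked, since its count of 0 in cattle 1 allows up to 10.2 CPM, above the 3 pig values. Within a library the ratio of GFRA2 to GFRA1 UMIs in germ-like cells was 2.43, 2.96 and 2.28 in cattle and 10.7, 7.52 and 16.9 in pigs. It was not read as a balance of the co-receptors, since levels of different genes were not compared and the pig GFRA2 locus is uncertain. The pig germ-like class also held clusters 16 and 7, described below, with hardly any GFRA1 UMI. They made up 121 and 38 of 645 cells in pig 1 and 394 and 55 of 699 in pig 3. GFRA1 in pig cluster 13 was at 20.7, 22.4 and 15.8 CPM. The part of this composition in the species comparisons was not tested.

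The share of germ-like cells with a GFRA1 UMI was 7.23%, 9.63% and 29.4% in the 3 cattle and 2.79%, 15.6% and 6.01% in the 3 pigs, where cattle 3 and pig 2 stood out and the species overlapped. The mean shares of 15.4% ± 12.1 and 8.12% ± 6.64 (SD, n = 3) were not separated (exact two-sided permutation test, p = 0.5). The germ-like cells of these animals differed in depth, with a median of 16908 UMIs in cattle 3 and 3514 in cattle 1. After every cell was thinned to 1000 UMIs, the shares were 1.32%, 2.29% and 3.21% in cattle and 0.845%, 1.33% and 0.429% in pigs (exact two-sided permutation test, p = 0.2), with 7 germ-like cells of cattle 1 and 53 of pig 1 left out as too shallow. For comparison, 1 of 1997 lymphocyte-like cells of cattle, a class that should lack the gene, had a GFRA1 UMI at a median depth of 1524 UMIs.

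**Figure D2:**
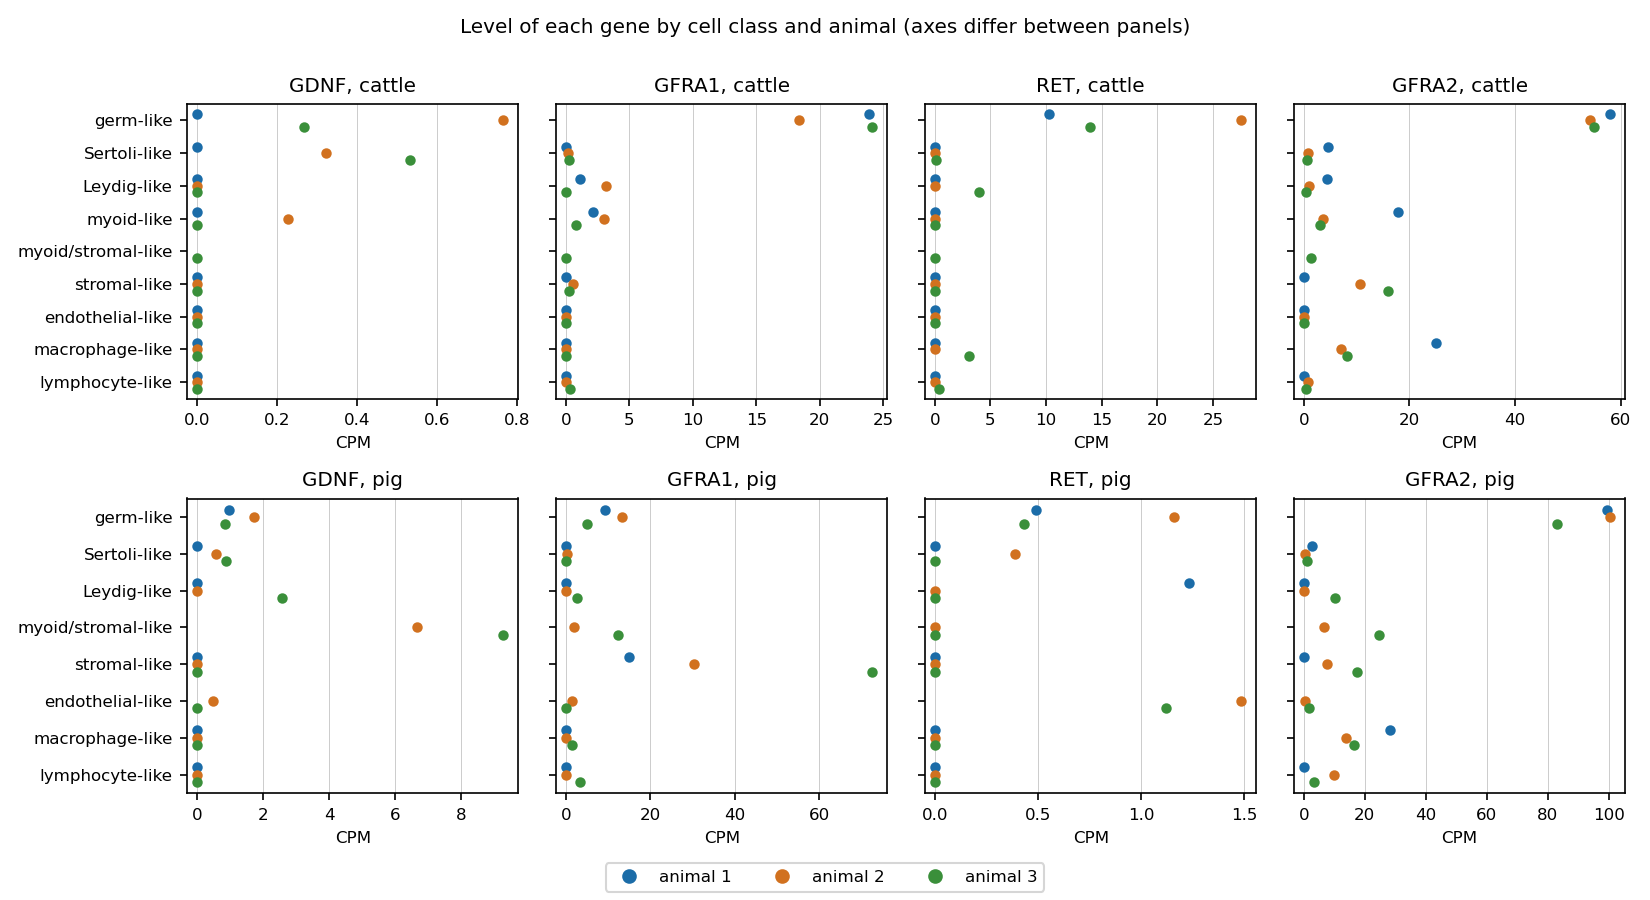
Level of each gene in CPM (horizontal axes, different in each panel) by cell class for cattle and pigs; each point is 1 animal with at least 20 cells of the class. GFRA1, RET and GFRA2 peak in the germ-like class of cattle, while in pigs GFRA1 reaches 72.5 CPM in the stromal-like class and GFRA2 peaks in the germ-like class.

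Outside the germ line the receptor levels differed by class, and Sertoli-like cells held few receptor UMIs. Sertoli-like cells, the nurse cells of the tubule, had 3 GFRA1 UMIs in 4204 cattle cells and 3 in 3713 pig cells. They were called lower than all other cells for GFRA1 in both species, with a log2 fold change of -3.89 in cattle (adjusted p = 0.00166) and -4.33 in pigs (adjusted p = 0.00532, edgeR). GFRA2 fell as well, by 3.27 log2 units in cattle (adjusted p = 0.00348) and by 5.86 in pigs (adjusted p = 0.00237). RET fell by 4.66 log2 units in cattle Sertoli-like cells (adjusted p = 0.00533), which held 1 RET UMI. Without cattle 2 or cattle 3 neither call on these genes in cattle held (adjusted p = 0.0829 and 0.0826 for GFRA2, 0.113 and 0.0829 for RET, edgeR). Germ-like cells are among the cells compared with, and 19.3% of genes in cattle and 15.5% in pigs were called lower in Sertoli-like cells. In cattle the GFRA1 call was lost without cattle 2 (adjusted p = 0.0625) or cattle 3 (adjusted p = 0.0545), and in pigs without pig 2 (adjusted p = 0.0754) or pig 3 (adjusted p = 0.0563).

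Myoid-like cells, the contractile cells around the tubule, had GFRA1 in cattle at 2.11, 2.97 and 0.791 CPM, and Leydig-like cells at 1.11, 3.13 and 0. Endothelial-like and macrophage-like cells had no GFRA1 UMI, which allows at most 7.91 and 2.04 CPM, so they cannot be ranked against these classes. The SD over animals was 1.10 in myoid-like and 1.59 in Leydig-like cells, so the classes did not differ beyond their spread, and both lay far under the germ-like level. RET was not found in 4886 myoid-like cells of cattle, which allows at most 0.258 CPM (3 counts), nor in 2333 stromal-like cells, which allows at most 0.541. Both classes were called lower for RET (adjusted p = 0.0137 and 0.0399, edgeR), among 11.9% of genes lower in myoid-like and 7.16% lower in stromal-like cells. Both calls were lost without cattle 2 (adjusted p = 0.153 and 0.304) or cattle 3 (adjusted p = 0.138 and 0.342). The cells compared with included the germ-like cells, which held 91 of the 104 RET UMIs. Cattle 3 alone had RET UMIs in Leydig-like cells, 8 of them in 389 cells or 3.93 CPM, and in macrophage-like cells, with 3. Those 3 were in a cluster led by MT3, PLD4 and IRF8, with no macrophage marker among its leading genes.

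The interstitial stromal-like cells, which hold PDGFRA and TCF21 among their marker genes, were called higher for GFRA1 in pigs and lower in cattle. Each call was against all other cells, germ-like cells included. In pigs they had 1, 8 and 29 GFRA1 UMIs in 75, 78 and 95 cells, or 14.9, 30.3 and 72.5 CPM, with a mean of 39.2 ± 29.8 (SD, n = 3). In each pig this was above the germ-like level of the same animal, although the value of pig 1 rests on 1 UMI, and pig 3 was the highest. The log2 fold change against all other cells was 3.44 with an SE of 0.571 (adjusted p = 0.00661, edgeR), among 2.14% of genes higher in this class. It fell short without pig 3, at 2.64 (adjusted p = 0.275), and when the class was taken with all barcodes over 500 UMIs, at 3.45 (adjusted p = 0.0755, with 0.242% of genes higher).

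In cattle the same class had 0, 1 and 1 GFRA1 UMIs in 2333 cells. It was called lower than the others, with a log2 fold change of -3.06 (adjusted p = 0.0252, edgeR), among 7.16% of genes lower. That call was lost without cattle 2 (adjusted p = 0.307) or cattle 3 (adjusted p = 0.456). The other cells included the germ-like cells, which held 121 of the 152 GFRA1 UMIs. Pooled GFRA1 was at 0.361 CPM in stromal-like cells (exact Poisson interval from 0.0437 to 1.30). It was at 0.651 in all cells but the germ-like, within that interval. A lower level than in other somatic cells was therefore not shown. The difference between species in this class was not tested. GFRA2 in cattle stromal-like cells was at 0, 10.6 and 15.9 CPM, where the count of 0 in the 55 cells of cattle 1 allows up to 45.0 CPM, and did not pass, at a log2 fold change of 0.44 (adjusted p = 0.576, edgeR), although it did with the animal as a block, at 0.77 (adjusted p = 0.00892), where 13.6% of genes were called higher.

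Among immune cells, GFRA2 was found in macrophage-like cells of both species. Of its 41 UMIs in this class of pigs, 24 were in a cluster led by CD52, MS4A2, S100A4 and HLA-DRA, at 34.8 CPM. None of the leading genes of that cluster was a macrophage marker. The cluster led by CXCL13, LYZ, C1QB and C1QA held 17, at 9.58 CPM. Pig macrophage-like cells had 28.3, 13.7 and 16.6 CPM, from 3, 5 and 33 UMIs, and cattle macrophage-like cells had 25.1, 7.02 and 8.27. The animals with the fewest GFRA2 UMIs in the class, pig 1 and cattle 1, gave the highest values from 3 and 2 UMIs. Neither class differed from all other cells, at a log2 fold change of -0.88 in pigs (adjusted p = 0.272) and 0.10 in cattle (adjusted p = 0.919, edgeR). Cattle lymphocyte-like cells were called lower for GFRA1 by -3.14 (adjusted p = 0.0377) and for GFRA2 by -3.85 (adjusted p = 0.00337), among 14.7% of genes lower. The first was lost without cattle 2 (adjusted p = 0.284) or cattle 3 (adjusted p = 0.214) and under DESeq2 (adjusted p = 0.0965), the second without cattle 3 (adjusted p = 0.0851). GFRA2 fell by 3.85 log2 units in pig Leydig-like cells (adjusted p = 0.022, edgeR), where all 4 UMIs came from 1 cell, and by 4.74 in pig endothelial-like cells over 2 animals (adjusted p = 0.0254), among 3.2% and 2.07% of genes lower. The Leydig-like call was lost without pig 1 (adjusted p = 0.24). In each of these lower calls the other cells included the germ-like cells, which held most UMIs of the gene.

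**Figure D3:**
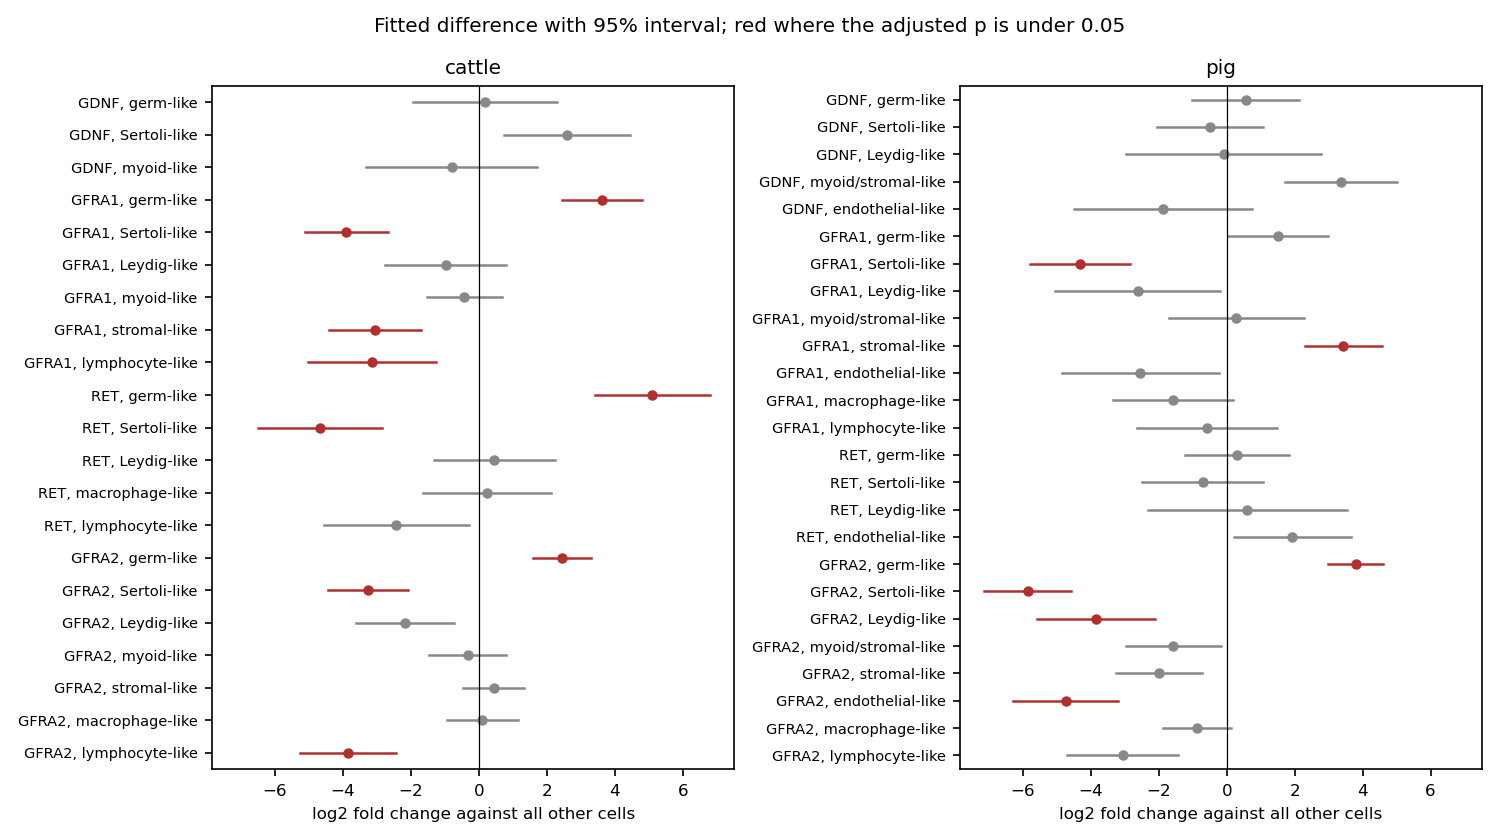
Log2 fold change of each gene in a cell class against all other cells of the same animals (horizontal axis), with its 95% interval, for cattle and pigs; red marks an adjusted p under 0.05. GFRA1, RET and GFRA2 are to the right in cattle germ-like cells, at 3.63, 5.11 and 2.45, and GFRA1 is to the right in pig stromal-like cells, at 3.44. The intervals use a normal quantile and are narrower than the edgeR test implies.

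Over the classes of cattle, GFRA2 was at 55.7 ± 1.99 CPM in germ-like cells, followed by 13.5 ± 10.1 in macrophage-like, 8.83 ± 8.08 in stromal-like and 8.25 ± 8.38 in myoid-like cells (SD, n = 3), and these 3 neighbours did not differ beyond their spread. Leydig-like cells had 1.99 ± 2.13, Sertoli-like cells 1.96 ± 2.24 and lymphocyte-like cells 0.390 ± 0.413, and the 135 endothelial-like cells had none, which allows at most 7.91 CPM. In pigs GFRA2 was at 19.5 ± 7.71 CPM in macrophage-like cells and 15.7 ± 12.8 (n = 2) in the cluster with both myoid and stromal markers. It was at 8.36 ± 8.77 in stromal-like, 4.36 ± 4.99 in lymphocyte-like, 3.42 ± 5.93 in Leydig-like, 1.31 ± 1.28 in Sertoli-like and 1.18 ± 0.97 (n = 2) in endothelial-like cells, all under the germ-like level. Clusters left without a name held 58 of its UMIs in 804 cells. Of these, 36 were in a cluster of 249 cells at 44.2 CPM, with 98.4% of cells from pig 2. Germ cell markers scored best in that cluster, but another cell type scored alike, so it counted among the other cells. After the stromal-like and germ-like classes of pigs, GFRA1 was at 7.13 ± 7.39 CPM (n = 2) in the cluster with both myoid and stromal markers. The 29 pericyte-like cells, with under 20 in each animal, had 2 UMIs each of GFRA1 and GFRA2, or 12.4 CPM pooled, and cannot be ranked (95% exact Poisson interval from 1.51 to 44.9). With all barcodes over 500 UMIs the pericyte-like class had GFRA1 at 57.7 CPM in pig 2 and 22.2 in pig 3, or 36.5 pooled from 11 UMIs, beside 34.0 pooled in stromal-like cells, and the classes were not compared by a test. In the remaining classes GFRA1 was at 1.09 ± 1.89 CPM in lymphocyte-like, 0.855 ± 1.48 in Leydig-like, 0.742 ± 1.05 (n = 2) in endothelial-like and 0.502 ± 0.869 in macrophage-like cells, which did not differ beyond their spread.

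The ligand was rare. GDNF had 10 UMIs in all cattle cells and 38 in all pig cells. In cattle Sertoli-like cells held 7 of the 10, with 0, 2 and 5 UMIs in cattle 1 to 3, or 0, 0.323 and 0.533 CPM. The count of 0 in cattle 1 allows at most 4.54 CPM, so this animal cannot be ranked against the other two. The log2 fold change was 2.59 with an SE of 0.95 and did not pass (adjusted p = 0.064, edgeR), whereas with the animal as a block it was 2.67 and did (adjusted p = 0.0346). Without the block 13.7% of genes were called higher in cattle Sertoli-like cells, and with it 25.3%. GDNF entered these tests at the minimum of 10 counts, 7 of them from the class tested. With cattle 2 or cattle 3 left out it fell under that minimum, so the result could not be checked without either animal. In cattle myoid-like cells GDNF had 1 UMI and in stromal-like cells 0.

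In pigs the Sertoli-like cells had 0, 6 and 1 GDNF UMIs in 3713 cells, at 0.580 CPM in pig 2 and 0.893 in pig 3. They did not differ from the other cells, with a log2 fold change of -0.50 and a 95% interval from -2.06 to 1.06 (adjusted p = 0.676, edgeR). Germ-like cells had 2, 6 and 10 GDNF UMIs, at 0.978, 1.74 and 0.864 CPM against 0, 0.896 and 0.655 in the other cells. The germ-like value was the higher in pig 2 and pig 3, whereas the count of 0 in the other cells of pig 1 allows up to 1.30 CPM and leaves that animal without a rank. The groups overlapped and the log2 fold change of 0.55 (95% interval from -1.02 to 2.13) did not pass (adjusted p = 0.616, edgeR).

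Among pig classes with at least 20 cells in an animal, GDNF was highest in a cluster of 370 cells with both myoid and stromal markers, led by ACTA2, CYP26B1, DCN and DES. It held 0, 7 and 3 GDNF UMIs in pig 1 to pig 3, or 6.65 and 9.27 CPM in pig 2 and pig 3, whereas pig 1 had too few cells for a value. With 2 animals the log2 fold change of 3.36 with an SE of 0.843 did not pass (adjusted p = 0.15, edgeR). With the animal as a block it passed, at 3.31 (adjusted p = 0.0276). Without the block 0.986% of genes were called higher, and with it 5.17%. Joined with the stromal-like cells, which had no GDNF UMI, the class gave 2.64 over 3 animals (adjusted p = 0.0742, edgeR), among 2.7% of genes higher.

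No pig cluster was named myoid-like among the cells called from each library's own UMI limit. When all barcodes with at least 500 UMIs were kept, a myoid-like class of 21, 1415 and 1851 cells in pig 1 to pig 3 appeared. It had 0, 23 and 16 GDNF UMIs, or 8.91 CPM in pig 2 and 3.87 in pig 3, against 0.614 and 0.868 in the other cells of these animals. Pig 2 and pig 3 were both above their other cells, and the count of 0 in the 21 cells of pig 1 allows up to 217 CPM. GDNF was called higher, with a log2 fold change of 3.16 and an SE of 0.597 (adjusted p = 0.00647, edgeR), among 5.5% of the 15706 genes tested. This minimum kept 18714 barcodes in pig 2 and 8158 in pig 3, although about 8000 cells were loaded per animal. Many of the pig 2 barcodes therefore cannot be cells. A cluster led by S100A12, S100A8 and S100A9, none of them a Sertoli cell marker, was named Sertoli-like. Class names are thus less certain with this minimum. With it Sertoli-like cells held 0, 6 and 1 GDNF UMIs and stromal-like cells 0, 1 and 8. The stromal-like level was 0.378 CPM in pig 2 and 3.61 in pig 3. Myoid-like and stromal-like cells were therefore alike in pig 3, and only pig 2 separated them. A pericyte-like class of 65 cells in pig 2 and 87 in pig 3, led by RGS5, held 0 and 3, where the 3 UMIs of pig 3 gave 16.7 CPM and the 0 of pig 2 allows up to 24.7 CPM. Its pooled level of 9.96 CPM was above the 5.79 of the myoid-like class but rests on those 3 UMIs, and it was not tested.

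**Figure D4:**
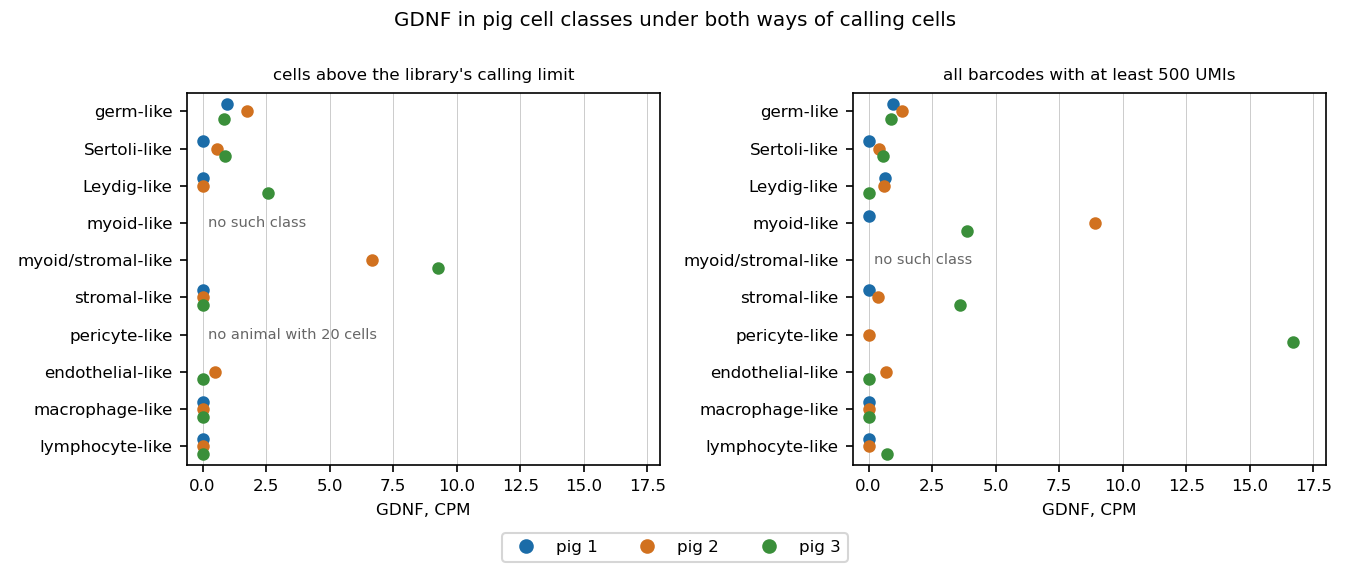
GDNF in CPM (horizontal axis) by pig cell class with cells called from each library's own UMI limit and with all barcodes over 500 UMIs; each point is 1 pig with at least 20 cells of the class. Myoid-like cells and the cluster with both myoid and stromal markers reach 8.91 and 9.27 CPM, 1 point of the pericyte-like class lies at 16.7 CPM from 3 UMIs, and Sertoli-like values stay under 1. With all barcodes over 500 UMIs, pig 3 lies at 3.61 CPM in stromal-like and 3.87 in myoid-like cells.

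The pig germ-like cells fell into 5 clusters, and GFRA1 and GFRA2 followed different patterns over them. The clusters were made without these genes and without stage genes among the variable genes. Values are given as a description with no test. Cluster 13, led by PAGE4, NXT1, DLK1 and PIWIL4, had GFRA1 at 20.7, 22.4 and 15.8 CPM in pig 1 to pig 3. The level of UTF1, a mark of undifferentiated spermatogonia, was 93.3, 68.9 and 106 CPM. The other undifferentiated markers did not all follow UTF1. ZBTB16 was at 5.18, 19.2 and 13.2 CPM, under its level in clusters 5 and 15. SALL4 was at 15.5, 11.2 and 5.28 CPM, against 6.525 in cluster 5 of pig 1. In cluster 15 of pig 2 and pig 3 it was at 21.4 and 19.5. NANOS3 had 0 UMIs, which allows up to 15.5 CPM in pig 1, 4.81 in pig 2 and 7.92 in pig 3. It cannot be ranked against 10.1 in cluster 5 of pig 1, or 0.411 and 1.61 in cluster 15 of pig 2 and pig 3. STRA8, a gene of differentiating and premeiotic cells, was at 20.7, 19.2 and 21.1 CPM, against 0.725 in cluster 5, and 42.8, 28.4 and 24.6 in cluster 16. SYCP1, a meiotic gene, was at 82.9, 99.4 and 97.7 CPM in cluster 13, against 55.03, 50.53 and 80.97 in cluster 16. DMC1, also meiotic, was at 5.18, 62.5 and 60.7, against 24.5, 0 and 4.70, so pig 1 went the other way. Of other meiotic genes, HORMAD1 was lower in cluster 13 in each pig, and SYCP2 in pig 2 and pig 3. MEIOB, SPO11 and TEX101 were mixed over the pigs. In pig 1 the cluster 13 values rest on 4 GFRA1 and 4 STRA8 UMIs, and 1 each of ZBTB16, GFRA2 and DMC1. Cluster 13 held 7 of the 18 germ-like GDNF UMIs. GFRA2 in it was at 5.18, 49.7 and 47.5.

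Clusters 5 and 15, both led by UCHL1, had the most GFRA2. In cluster 15 of pig 2 and pig 3 GFRA2 was at 124 and 139 CPM and GFRA1 at 13.2 and 9.87, with ZBTB16, a factor of undifferentiated spermatogonia, at 75.2 and 93.0. In cluster 5, of which 97.9% of cells were from pig 1, GFRA2 was at 133, GFRA1 at 9.42 and ZBTB16 at 46.4, and GFRA2 was itself among the genes that led the cluster. Cluster 16, led by MT3 and AMPD1, kept GFRA2 at 33.6, 34.7 and 44.1 CPM but had 2 GFRA1 UMIs in 542 cells. UTF1 in it was at 0, 15.8 and 12.7 CPM. KIT, the receptor of differentiating spermatogonia, was at 30.6, 167 and 74.0 there and at 31.1, 54.5 and 50.2 in cluster 13, so that pig 1 did not separate the clusters by KIT.

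Cluster 7, led by TEX101, LY6K and LYPD4, was without GFRA1 UMIs in 100 cells and had 1 GFRA2 UMI. Its total of 613447 UMIs allows at most 4.89 CPM of GFRA1. SYCP1, a component of the synaptonemal complex, was at 722 and 708 CPM in pig 1 and pig 3. GFRA1 UMIs were thus found in clusters 13, 5 and 15 and hardly in clusters 16 and 7, while GFRA2 UMIs extended into cluster 16. The cattle germ-like cells formed 1 cluster, so no such order could be given for them.

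**Figure D5:**
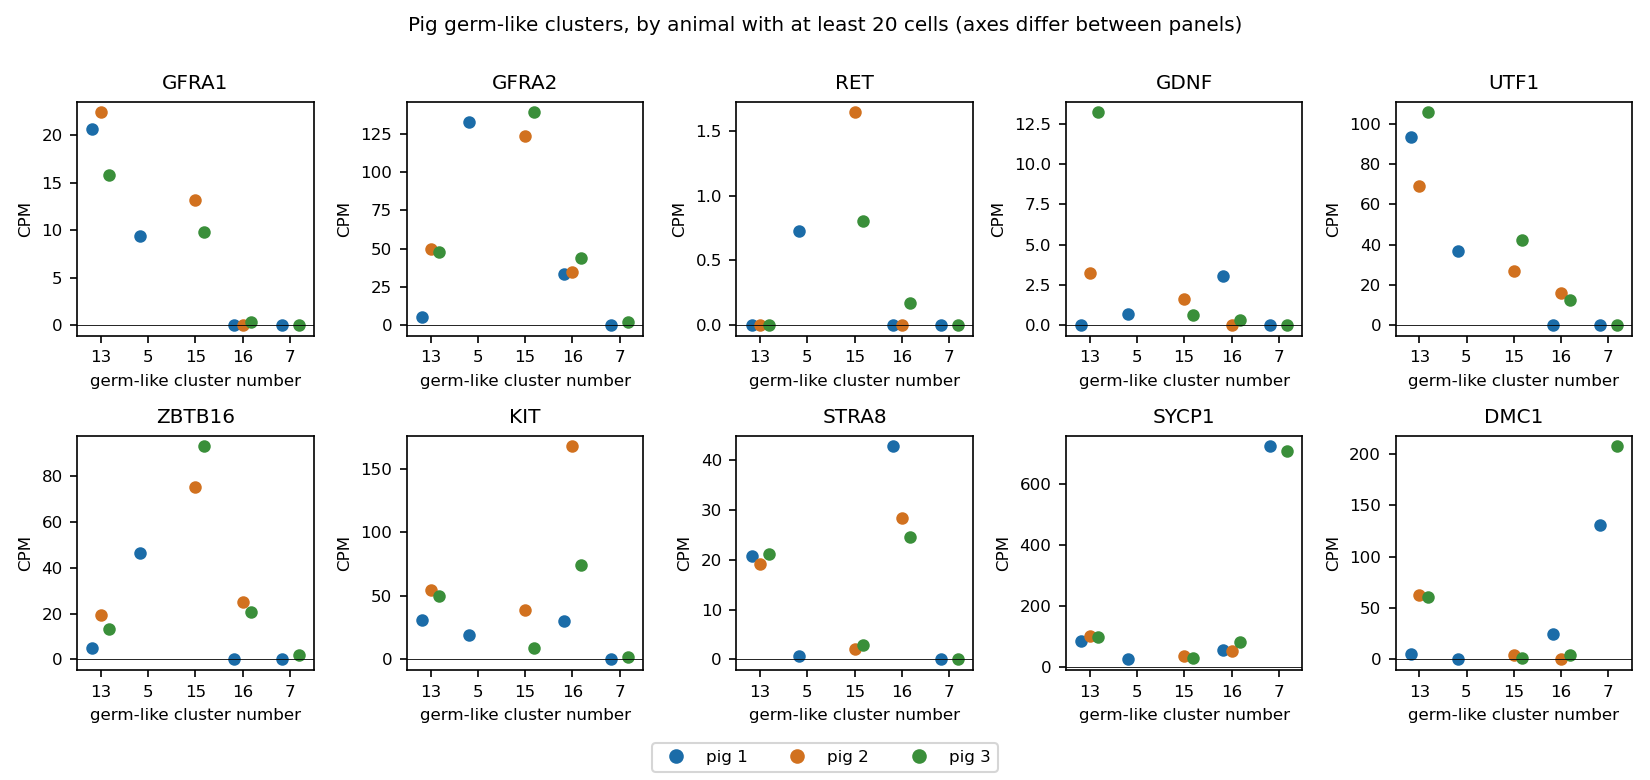
Levels in CPM (vertical axes, different in each panel) in the 5 germ-like clusters of pigs, by cluster number; each point is 1 pig with at least 20 cells in the cluster. GFRA1 is highest in cluster 13 and near 0 in clusters 16 and 7, whereas GFRA2 is highest in clusters 5 and 15.

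In single cattle germ-like cells RET UMIs were more frequent beside GFRA1 UMIs than without them. RET UMIs were present in 26 of the 91 cells with a GFRA1 UMI (28.6%) and in 10.98% of the cells without. The cells with GFRA1 were deeper, with a median of 16291 UMIs against 6366, and the part that depth plays was not tested. By animal the shares were 28.6% against 12.7% in cattle 2, 31.3% against 12.3% in cattle 3, and 0 of 6 cells in cattle 1. In pigs GFRA2 was present in 57 of the 95 germ-like cells with a GFRA1 UMI and in 38.3% of those without, at median depths of 17269 and 7039 UMIs.

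The other genes of the pathway gave a mixed picture in germ-like cells. Of 6 other receptors and co-receptors, 4 were tested in cattle and GFRA3 rose, with a log2 fold change of 5.37 (adjusted p = 0.000112, edgeR) and a level of 14.5 ± 4.91 CPM against 0.112 ± 0.104 in the other cells. GFRA3 is the co-receptor of artemin. Among all genes tested in cattle 23.1% rose, so 1 of 4 was close to that share. In pigs GFRA3 had 1 UMI in germ-like cells, while of the 4 tested GFRAL and NCAM1 rose and SDC3 fell. There 17.2% of all genes rose and 20.2% fell. NCAM1, a cell adhesion molecule that can bind GDNF without RET, was at 74.7 ± 29.1 CPM against 13.2 ± 2.87 (log2 fold change 2.13, adjusted p = 0.00219). GFRAL, the GDF15 receptor, rested on 10 UMIs and did not pass with the animal as a block (adjusted p = 0.0612), under DESeq2 (adjusted p = 0.123) or without the filter on low counts (adjusted p = 0.0509).

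The list of genes that GDNF regulates in mouse spermatogonia held 12 symbols, of which TBXT and T name 1 gene. In cattle 4 were tested, of which 2 rose and 1 fell, and in pigs 8, of which 1 rose and 4 fell. The shares over all genes were 23.1% higher and 26.7% lower in cattle and 17.2% and 20.2% in pigs. LHX1, a homeobox factor, rose in both species, to 14.7 ± 6.85 CPM in cattle (log2 fold change 6.73, adjusted p = 0.000135) and 12.8 ± 8.75 in pigs (4.56, adjusted p = 0.00285, edgeR). ETV5, a transcription factor that maintains stem cells, rose in cattle to 82.0 ± 21.7 CPM against 7.03 in the other cells (log2 fold change 2.42, adjusted p = 0.000149). In pigs ETV5 was at 35.9 ± 14.3 against 13.6 ± 8.34 and did not pass (1.03, adjusted p = 0.115, edgeR), although it did with the animal as a block (1.14, adjusted p = 0.0204, with 22.0% of genes higher) and without pig 3 (1.60, adjusted p = 0.0438). CXCR4, a chemokine receptor, fell in both species and BCL6B, EGR2 and EGR3 fell in pigs. These falls are relative to other cells that include classes in which the genes were called higher. Those classes were macrophage-like cells of both species and cattle lymphocyte-like cells for CXCR4. For BCL6B they were pig endothelial-like cells, and for EGR2 and EGR3 pig Sertoli-like cells. EGR2 fell by 3.85 log2 units in pig germ-like cells (adjusted p = 0.0042, edgeR). EGR2 had 1499 UMIs in pig Sertoli-like cells, and was among the leading genes of a Sertoli-like cluster with 97.7% of cells from pig 2. The part of these classes in the falls was not tested. The CXCR4 call was lost in cattle without cattle 2 (adjusted p = 0.0818) or cattle 3 (0.172) and in pigs without pig 2 (0.14) or pig 3 (0.056), that on BCL6B without pig 2 (0.0753) or pig 3 (0.0628), and that on EGR3 without pig 1 (0.0652) or pig 3 (0.0853).

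Of 13 RET adaptors, 10 were tested in cattle, with DOK4 higher and DOK1, GAB1 and SHC1 lower, and 12 in pigs, with DOK5 higher and FRS2, PIK3R1, PLCG1, SHC1 and SRC lower. In cattle the share of adaptors called lower was close to the 26.7% of all genes, and the share called higher was under the 23.1%. In pigs 20.2% of all genes were lower and 17.2% higher. The adaptor DOK5 had a log2 fold change of 3.93 in pigs (adjusted p = 0.00185) and DOK4 one of 1.80 in cattle (adjusted p = 0.00845, edgeR). The medians over the tested adaptors were -0.60 in cattle and -1.41 in pigs, where the median over all genes was -0.17 and -0.08. SHC1 in cattle had the opposite sign on library size alone, at 0.07, where it did not pass. Without cattle 2 the adjusted p was 0.178 for DOK4, 0.0923 for DOK1 and 0.14 for SHC1, and without cattle 3 it was 0.116, 0.156 and 0.203. Without pig 2 it was 0.0726 for SHC1, 0.0834 for PLCG1 and 0.0534 for PIK3R1.

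Of the 3 other ligands of the family, 1 was tested, NRTN, the preferred ligand of GFRA2. In germ-like cells it did not pass in either species, at a log2 fold change of -0.55 in cattle and -0.23 in pigs. It rose in cattle Sertoli-like cells, at 7.67 ± 1.85 CPM against 4.41 ± 1.60 (log2 fold change 1.36, adjusted p = 0.045, edgeR). That call was lost without cattle 2 (1.47, adjusted p = 0.234) or cattle 3 (0.73, adjusted p = 0.481) and under DESeq2, library size alone and other alternatives. Of 6 other niche factors, CXCL12, IGF1 and CSF1 rose in pig stromal-like cells, the class in which GFRA1 was high, with log2 fold changes of 3.98, 4.60 and 3.47. IGF1 and FGF2 rose in cattle stromal-like cells, with 2.48 and 1.49, among 2.61% of genes higher in that class. The pig calls were lost with the 500 UMI minimum (adjusted p from 0.114 to 0.122), and the cattle calls without cattle 2 (0.266 and 0.452) or cattle 3 (0.2 and 0.484). In germ-like cells 4 of the 5 tested in cattle and 4 of the 6 tested in pigs fell and none rose, where 26.7% and 20.2% of all genes were lower.

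Across cell classes, the genes most like each receptor were found from the Pearson correlation of log2(CPM + 10) over sums of 1 class in 1 animal, 25 in cattle and 22 in pigs, which share libraries and depths, so that r is a description. Of the genes with a symbol, GFRA1 in cattle was followed most closely by SYCE1 (r = 0.984), MYH1 (0.982), SYCE3 (0.981) and STMN3 (0.979). RET was followed by DRC7 (0.969), ALX1 (0.968) and DNAH8 (0.967). Genes known by an identifier alone reached 0.982 for GFRA1 and 0.978 for RET, the latter the highest for RET. The receptors were also alike among themselves in cattle, with r = 0.875 for GFRA1 and RET and 0.823 for GFRA1 and GFRA2. In pigs GFRA1 was most like NPR3 (0.917), C17orf105 (0.892) and LOXL2 (0.888), whereas GFRA2 was most like GALNT6 (0.924) and FOXR1 (0.918). The pig co-receptors were less alike, with r = 0.338.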

How the data were processed

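Single-cell libraries of prepubertal testis were analysed from 3 cattle and 3 pigs. The mouse library of the study was not used here, and the RET transcript end is not reported here. Per the labels and methods, the authors demultiplexed reads with Cell Ranger 2.1.0 and aligned them to ARS-UCD1.2 or Sscrofa11.1, and the deposited values are raw UMI counts per gene and barcode. The headers of the pig matrices name software version 3.0.2. The cattle matrices list 737280 barcodes each, and the pig matrices list those with at least 500 UMIs. The files hold between 5805223 and 53325608 UMIs per library.

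Cells were barcodes with at least the 99th percentile of UMIs among the top 3000 divided by 10 (limits from 460 to 3458 UMIs) and 200 genes. Scrublet in scanpy 1.11.5 left out the highest-scoring 0.8% per 1000 cells. Cells were clustered per species by Leiden (2000 variable genes, 30 components, 15 neighbours, resolution 1), with the reported genes and stage genes kept out of the variable genes, and named from marker lists by a scoring rule set after the clusters were seen. The named genes and lists were chosen with earlier results of these data known. They were the 4 genes, the pathway lists (up to 6 called genes by size of the fold) and the 5 genes most like each by correlation over sums, among genes with at least 100 UMIs.

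UMIs were summed per animal, class and all other cells (at least 20 cells), and tested with edgeR 4.0.16 in R 4.3.3 (TMM, quasi-likelihood, at least 10 counts, Benjamini-Hochberg over all genes, threshold 0.05). Both sums of an animal come from 1 library and deviated together (r from 0.361 to 0.781), so they pair by animal, and the animal as a block was an alternative. Intervals of fold changes are nominal 95% intervals from the SE and a normal quantile. With this few animals they are narrower than the edgeR test implies. Counts of 0 were given a limit of 3 counts, which covers counting error only. The scripts were tested on simulated data. The alternatives were other scaling, no filter, DESeq2 1.42.0, the block, each animal left out, 500 UMIs, doublets kept, resolution 2 and joined stroma.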

Additional observations from a re-analysis of the deposited data

Results flagged for a closer look

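The germ-like effect on RET differed between the species in a test of the difference itself, by -4.66 log2 units in pigs relative to cattle (adjusted p = 0.022, edgeR interaction term, 3 animals each). RET was higher in the germ-like cells than in the other cells in 3 of 3 cattle. In pigs the groups overlapped, the germ-like values rest on 1, 4 and 5 UMIs, and no excess was detectable. The call on the difference was lost without cattle 2 (adjusted p = 0.0932), without pig 2 (adjusted p = 0.0785), without pig 3 (adjusted p = 0.0631) and with a minimum of 500 UMIs (adjusted p = 0.0503).

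Barcodes with at most 50 UMIs, which are mostly droplets without a cell, were outside the comparisons and are listed for cattle. Together they held 3487124 UMIs. Of these 7 were GFRA1 UMIs, or 2.01 CPM (95% exact Poisson interval from 0.807 to 4.14), and 19 were GFRA2 UMIs, or 5.45 CPM (from 3.28 to 8.51). Both lay above the limit that a count of 0 allows, 0.860 CPM. RET had 1 UMI there and GDNF 0. The GFRA1 and GFRA2 levels of these barcodes were below those of the germ-like cells of every cattle. In the myoid-like cells of cattle GFRA1 was at 2.11, 2.97 and 0.791 CPM and GFRA2 at 17.9, 3.65 and 3.16. GFRA2 in cattle macrophage-like cells was at 8.82 CPM pooled (95% exact Poisson interval from 4.70 to 15.1). The part of RNA outside cells in the low receptor levels outside the germ line was not tested.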

How the results depend on the processing

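The calls on GFRA1, RET and GFRA2 in cattle germ-like cells and on GFRA2 in pig germ-like cells held under every alternative run. Values that changed direction or side of the threshold were these. With the animal as a replicate block, GDNF in cattle Sertoli-like cells passed, at 2.67 and on the fewest counts the filter admits. GFRA2 passed in the species difference (1.40). GDNF in joined pig stroma passed as well (2.58, adjusted p = 0.0112). It changed no other call beside those given with the results. It raised the number of genes called higher from 1943 to 3587 in cattle Sertoli-like cells and from 370 to 1931 in cattle stromal-like cells, from 325 to 819 in pig stromal-like cells, and from 1153 to 2048 for larger effects in pigs.

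Leaving out 1 animal gave ranges of -4.20 to -3.82 for GFRA1 in cattle Sertoli-like cells, -3.53 to -2.54 in cattle stromal-like cells, -8.16 to -4.17 in pig Sertoli-like cells, 0.84 to 3.12 in pig germ-like cells and 2.64 to 3.94 in pig stromal-like cells. RET ran from -0.0008027 to 0.45 in pig germ-like cells, the first without pig 2 and with the direction reversed, and from -8.98 to -3.72 for the species difference. GFRA2 in cattle stromal-like cells ran from -0.12 without cattle 3, a reversal, to 0.88, and the GDNF species difference reversed to -0.0653 without cattle 3.

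With a minimum of 500 UMIs, GDNF in cattle myoid-like cells reversed to 0.40, the RET species difference no longer passed at -3.53, GFRA1 in pig stromal-like cells no longer passed at 3.45, and the GDNF species difference reversed to -0.65. GDNF in pig myoid-like cells has no value without that minimum, since no cluster was named so. At resolution 2 GFRA1 in cattle stromal-like cells was -1.44 and did not pass, and with the stroma joined it was -1.15 in cattle and 2.59 in pigs and passed in neither. GFRA2 in cattle macrophage-like cells reversed to -0.0243 on library size alone, -0.0491 with doublets kept and -0.18 at resolution 2. On library size alone SHC1 in cattle germ-like cells reversed to 0.075 and the GDNF species difference to -0.24. The cause of these changes was not tested.

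Library size alone also moved the split of genes called higher and lower, from 3286 and 3794 to 6248 and 1830 in cattle germ-like cells, from 2621 and 3077 to 3587 and 2281 in pig germ-like cells, from 1943 and 2739 to 1173 and 3957 in cattle Sertoli-like cells, from 1569 and 2365 to 930 and 3582 in pig Sertoli-like cells, and from 1153 and 820 to 536 and 2201 for the species difference. Thinning moved the mean share of germ-like cells with a GFRA1 UMI to 2.27% in cattle and 0.869% in pigs. GDNF, with 10 UMIs in cattle and 38 in pigs, and RET in pigs, with 22, rest on few UMIs in every comparison.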
